A study of Mus musculus with 9 samples.

Results

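Gene expression was compared between BaF3 cells that carried the fusion BCR-RET and BaF3 cells that carried the fusion BCR-ABL, with 3 arrays for each, 6 of the 9 arrays in the series. All 19938 genes with a probe set of their own symbol were compared, and where a gene had several probe sets the brightest over the 9 arrays was taken. BaF3 is a mouse haematopoietic line that depends on interleukin-3. Both groups received their fusion by retrovirus and were sorted on EGFP, so infection and sorting were common to them, and the BCR-ABL construct was the P210 form. The other 3 arrays carried FGFR1OP-RET. They entered the estimate of the spread, and their values are given here as a description. No genotype, treatment or time other than the fusion is given in the labels. Cells without a fusion were not analysed here, so no difference below is a change from uninfected cells. How the 3 replicates of a fusion relate (infection, culture or RNA) is not stated in the labels, and the p-values below cover their spread alone, which may be technical.

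BCR-ABL and BCR-RET are both fusion tyrosine kinases in which the BCR portion brings kinase domains together, so that they signal without ligand. ABL and RET are different kinases. ABL is a cytoplasmic kinase and RET is the receptor for ligands of the GDNF family. In BaF3 cells such fusions are known to replace the signal of interleukin-3, which normally runs through the receptor chain Csf2rb to JAK2, STAT5, RAS and ERK, and PI3K.

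The line was checked first. The leukocyte phosphatase gene Ptprc had a mean log2 value of 11.68 in BCR-ABL cells and 11.48 in BCR-RET cells, and the interleukin-3 receptor chain Il3ra had 10.34 and 10.39. Neither difference passed the test (adjusted p = 0.238 and 0.832, limma). The shared chain Csf2rb and its relative Csf2rb2, the other members of this list of 4, were higher in BCR-RET cells by 0.72 and 0.90 and passed (adjusted p = 0.00819 and 0.00278, limma). None of 20 measured B lymphoid genes passed either, and their median difference was 0.07. Among these, Cd79b, a chain of the B cell receptor, had means of 9.64 and 9.87. Detection calls were not used here, so the presence of a transcript was not judged.

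All values are log2 values as deposited, so a difference of 1 is a doubling, and every difference is BCR-RET minus BCR-ABL. Genes were called at a Benjamini-Hochberg adjusted p under 0.05 in limma. Of the genes tested 0.587% were called, 117 in all. Of these, 74 (0.371% of genes) were higher and 43 (0.216%) lower in BCR-RET cells. The median size of a called difference was 0.53, a 1.44-fold change, and the smallest was 0.27. Over all genes the median size was 0.07, and 60.7% of genes had a difference above 0. Ranges of the groups did not overlap for 3316 genes, 16.6% of those tested, and all 117 called genes were among them. Groups being apart was therefore shared by every called gene described below, and it is no added evidence for a call.

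The replicate numbers of the labels were treated as pairs in an alternative fit. Blocking on that number gave 362 called genes (1.82%), 237 higher and 125 lower, which included all 117. Centring each array on its median moved all differences by -0.06 and left 33 genes higher and 51 lower, of which 33 and 43 were among the 117. The larger number of higher than lower calls therefore turned round with that scaling. The median difference of all genes was 0.026 before centring and -0.035 after it, so its sign also changed. Called genes that were higher but not called after centring were Lgals9, Far2, Selenbp1, Rab38, Cox6a2, Selenbp2, Nlrp6, Gadd45b, Ces2g, Slc18a2, Cd96, Trim30a, Csgalnact1, St8sia4, Tfr2, Klf1, Cd48, Ffar2, Gbp7, Ifi27l2a, Selenom, Tnfrsf18, Ifi27, Rangrf, Psmb9, Gli2, Hyal3, Fas, Mtres1, Mst1r, Nudt7, Plvap, Rgcc, Ak1, Eps8, Tapbp, Slc6a19, Rbp3, Mpst and Kcnab3, with 1 uncharacterised gene. Leaving out single arrays left between 28 genes (without BCR-ABL replicate 2) and 114. The 25 genes that held without each of the 9 arrays were Pdcd1, Tnfrsf9, Cxcl10, Muc13, Il6, Tgm2, Csf2rb2, Itgb3, Osm, F10, Gata1, Asb11, Csf2rb, Fam178b, Cpne5 and Gab3 among the higher, and Tmem119, Pdp1, Gzmc, Ermp1, Hbegf, Igf1r, Slc39a14, Rasa2 and Tsc22d1 among the lower. Every other called gene named below lost its call without at least 1 array. For 61 of the 117, leaving out any 1 of at least 5 arrays ended the call. For 12 the call ended whichever of the 9 arrays was left out. Where a gene is given 1 adjusted p with an array left out, it is the highest of the 9 such fits.

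**Figure D1:**
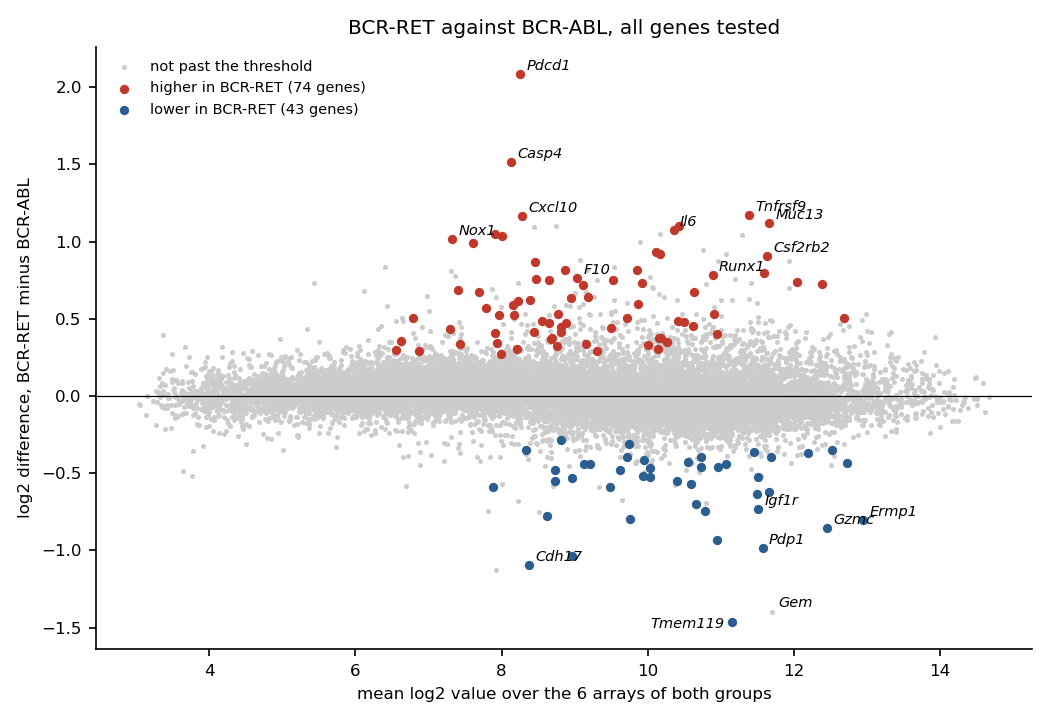
Log2 difference of each of 19938 genes (vertical axis) against its mean log2 value over the 6 arrays (horizontal axis), with called genes in red (74 higher) and blue (43 lower) and all others in grey. Among these genes Pdcd1 lies highest at 2.08 and Tmem119 lowest at -1.46.

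Calls depended on the level of the gene. Genes were split by mean level into 3 sets of 6646. The dimmest set held 6 called genes, all higher, the middle set 53 (40 higher, 13 lower) and the brightest set 58 (28 higher, 30 lower). The median difference over all genes of a set was 0.04, 0.05 and -0.03 in that order. By class, 115 called genes were protein coding and 2 were long noncoding RNAs, and none of 297 microRNA genes was called.

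The fusion partner genes gave 1 call. Abl1, whose kinase part is the one in BCR-ABL, measured 11.14, 11.27 and 11.17 on the BCR-ABL arrays and 10.71, 10.86 and 10.63 on the BCR-RET arrays. The groups were apart, with a difference of -0.46 (SE 0.07, adjusted p = 0.0219; 0.127 without BCR-ABL replicate 2). Ret measured 7.91, 7.97 and 7.80 against 8.07, 8.003 and 8.003, a difference of 0.13 that did not pass (adjusted p = 0.417). Bcr and Cep43, the present symbol of Fgfr1op, differed by -0.14 and -0.02 and did not pass (adjusted p = 0.641 and 0.86). The labels do not state which part or species of each gene the constructs carried, and these values do not check the labels.

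A receptor that regulates lymphocyte activation had the highest difference of the genes tested. Pdcd1, the inhibitory receptor PD-1, measured 7.18, 7.17 and 7.30 on the BCR-ABL arrays and 9.36, 9.40 and 9.14 on the BCR-RET arrays. The BCR-RET arrays lay far above, with a 2.08 difference (SE 0.07, adjusted p = 2.86e-06), and the FGFR1OP-RET mean of 7.40 was near that of BCR-ABL. Tnfrsf9, the costimulatory receptor 4-1BB, measured 10.73, 10.72 and 10.93 against 11.81, 12.09 and 11.999 (difference 1.17, SE 0.12, adjusted p = 0.00326). Its FGFR1OP-RET mean of 10.17 was below both. Lgals9, a galectin that binds inhibitory receptors, measured 9.82, 9.82 and 9.99 against 10.72, 11.14 and 11.07 (difference 1.10, SE 0.18, adjusted p = 0.0335). The call was lost after centring (adjusted p = 0.0568) and when BCR-ABL replicate 2 was left out (adjusted p = 0.178).

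The gene lists were chosen with earlier results of these data known. Here and below, called shares of lists are therefore descriptions and not tests. Of 31 measured immune checkpoint genes 2 rose, Pdcd1 and Lgals9, and 1 fell, the receptor gene Cd244a (-0.39). Together they were 9.68% of the list, against 0.587% of all genes called, and the list median was 0.06. Cd48, which encodes the ligand of that receptor, rose by 0.45. Of 28 TNF receptor family genes 3 (10.7%) rose, namely Tnfrsf9, the costimulatory receptor Tnfrsf18 (0.41) and the death receptor Fas (0.35). The median of that list, 0.02, was near that of all genes, 0.03. After centring 1 of the 3 was still called, as on the 6 arrays alone and without any single BCR-ABL or BCR-RET array. The adhesion receptor Cd96, of T and NK cells, rose by 0.50, and Ffar2, a receptor for short-chain fatty acids, by 0.45.

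Cytokine genes and their receptors followed. Il6, an inflammatory cytokine, measured 9.75, 9.92 and 9.78 against 10.83, 10.79 and 11.05 (difference 1.07, SE 0.10, adjusted p = 0.00153). The FGFR1OP-RET mean, 9.82, equalled that of BCR-ABL at this rounding. Osm, a cytokine of the same family and a known STAT5 target, rose by 0.82, and the chemokine Ccl17 by 0.52. Of 37 cytokines 2 (5.41%) rose and none fell, with a median of 0.06, and of 31 chemokines 2 (6.45%) rose, with a median of 0.07. Among 36 cytokine receptors 3 (8.33%) rose: Csf2rb2 (0.90), Il2ra, the alpha chain of the interleukin-2 receptor (0.80), and Csf2rb (0.72). Over all genes 0.587% were called. Csf2rb2 and Csf2rb lie next to each other in the reference gene order and are close in sequence, and whether either probe set also binds the other transcript was not tested. The heparin-binding growth factor gene Hbegf went the other way, at 10.12, 10.23 and 10.13 against 9.31, 9.49 and 9.28 (difference -0.80, SE 0.07, adjusted p = 0.00168). The vascular growth factor gene Angpt1 fell by 0.39 on the log2 scale.

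**Figure D2:**
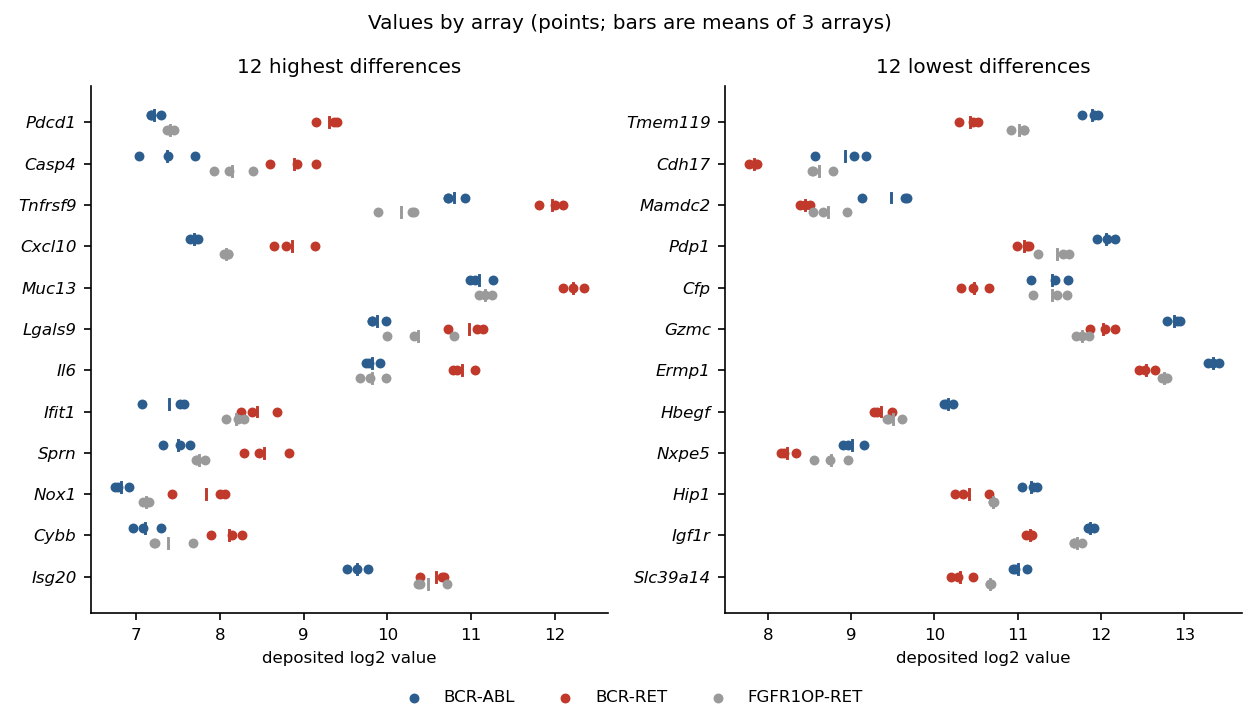
Deposited log2 values on each array (points, horizontal axis) and means of 3 arrays (bars) for the 12 genes with the highest and the 12 with the lowest difference. Pdcd1 and Il6 in FGFR1OP-RET cells (grey) lie near BCR-ABL (blue), whereas Gzmc and Isg20 lie near BCR-RET (red).

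Interferon response genes formed the list with most calls. Of 56 measured genes 9 (16.1%) rose and none fell, where 0.371% of all genes rose. The list median was 0.20 against 0.03 for all genes, and 50 (89.3%) were above 0, against 60.7% of all genes. With the replicate block 16 rose, after centring 5, without BCR-ABL replicate 2 only 1, and without the array numbered 1 of every group none. Over all genes these settings called 362, 84, 28 and 28 genes in that order, against 117 as reported. Mean log2 values of the list were 8.58, 8.62 and 8.69 on the BCR-ABL arrays and 8.86, 9.02 and 8.87 on the BCR-RET arrays. On the FGFR1OP-RET arrays they were 9.12, 9.13 and 9.09, above every BCR-RET array. Cxcl10, a chemokine induced by interferon, measured 7.74, 7.64 and 7.70 against 8.79, 9.14 and 8.65 (difference 1.16, SE 0.10, adjusted p = 0.00153). Ifit1, which binds foreign RNA, measured 7.07, 7.52 and 7.58 against 8.25, 8.68 and 8.39 (difference 1.05, SE 0.15, adjusted p = 0.0147; 0.0704 without BCR-RET replicate 3). The exonuclease gene Isg20 measured 9.52, 9.64 and 9.77 against 10.39, 10.68 and 10.66 (difference 0.93, SE 0.11, adjusted p = 0.00819; 0.0566 without BCR-ABL replicate 2). In all of these the groups were apart.

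The other called members were Lgals9, Oasl2 (0.76), Ifit3 (0.69), Trim30a (0.49) and the neighbouring genes Ifi27l2a (0.43) and Ifi27 (0.40). The guanylate-binding protein gene Gbp7, which the list did not hold, rose by 0.44. In FGFR1OP-RET cells Oasl2 and Ifi27 had means of 9.22 and 11.82, above the BCR-RET means of 8.84 and 11.14. Of 25 genes for interferons, their receptors and their signalling none was called, and their median was 0.06. Of 22 antigen processing genes 2 rose, the immunoproteasome subunit gene Psmb9 (0.38) and Tapbp, encoding the peptide loading protein tapasin (0.30). They were 9.09% of the list, against 0.587% of all genes called. Their list median was 0.20, and neither was called after centring. H2-Oa, a regulator of class II loading that the list did not hold, rose by 0.53.

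Promoters of these genes were read in RefSeq (GRCm38.p6), from 250 bases before to 50 after each start. Such a window was held for 15614 tested genes, 61 of the higher and 29 of the lower. The core of the interferon-stimulated response element, GAAANNGAAA on either strand, stood in 7 of the 61 (11.5%), in 2 of the 29 (6.90%) and in 3.89% of all. The STAT motif TTCNNNGAA stood in 11 of the 61 (18.03%), in 3 of the 29 (10.3%) and in 8.99% of all. A match is a description of letters and not a binding site, and no test was made. The stretches around the core in the 7 higher genes are shown because they are the part of these promoters that the motif search found, with the match in capitals, 5′ to 3′ on the gene's strand:

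Ifit1 (chr19:34640760-34640838, + strand): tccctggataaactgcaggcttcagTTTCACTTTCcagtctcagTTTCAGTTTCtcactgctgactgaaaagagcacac
Ifit3 (chr19:34583348-34583441, + strand): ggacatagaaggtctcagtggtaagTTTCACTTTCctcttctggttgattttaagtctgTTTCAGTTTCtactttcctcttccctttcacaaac
Cxcl10 (chr5:92349068-92349127, - strand): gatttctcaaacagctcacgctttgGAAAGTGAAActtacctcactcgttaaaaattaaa
Lgals9 (chr11:78984945-78985004, - strand): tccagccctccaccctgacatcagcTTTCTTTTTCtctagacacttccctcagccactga
Cybb (chrX:9469458-9469517, - strand): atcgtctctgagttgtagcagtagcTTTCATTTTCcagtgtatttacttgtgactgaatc
Gbp7 (chr3:142530258-142530317, + strand): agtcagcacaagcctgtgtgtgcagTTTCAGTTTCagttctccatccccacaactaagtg
Trim30a (chr7:104465195-104465254, - strand): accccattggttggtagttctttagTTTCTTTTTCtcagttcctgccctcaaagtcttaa

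In Ifit1 and Ifit3 the core occurred at 2 places within the stretch, and in each of the others at 1. The matches shown began between 36 bases (Trim30a) and 213 bases (Cxcl10) before the start. Stretches show only matches that ended by the start site, whereas the counts also cover the 50 bases after it. Trim30a had the core in 2 promoters, of which 1 is shown. The 2 lower genes with the core were Acsbg1 and Emilin2.

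Casp4, Nlrp6, Nox1 and Cybb, genes of inflammasomes and of the NADPH oxidases, were also higher. Casp4, the caspase that senses cytosolic lipopolysaccharide, measured 7.04, 7.38 and 7.70 against 8.60, 8.92 and 9.15 (difference 1.51, SE 0.19, adjusted p = 0.00931). Leaving out BCR-ABL replicate 2 or BCR-RET replicate 3 ended the call (adjusted p = 0.0646 and 0.0517, limma). Of 21 inflammasome genes 2 (9.52%, against 0.587% of all genes) rose, Casp4 and the sensor gene Nlrp6 (0.62), and after centring Casp4 alone was called. The list median was 0.01, and Casp1, the gene next to Casp4, differed by 0.48 and did not pass (adjusted p = 0.18). Nox1, a catalytic subunit of NADPH oxidase, measured 6.74, 6.79 and 6.92 against 7.43, 8.0 and 8.07 (difference 1.02, SE 0.14, adjusted p = 0.0153; 0.103 without BCR-ABL replicate 2). Cybb, the phagocyte subunit, measured 7.07, 6.96 and 7.29 against 8.15, 7.89 and 8.27 (difference 0.99, SE 0.14, adjusted p = 0.0176; 0.116 without BCR-ABL replicate 2). They were the 2 called of 19 oxidase genes (10.5%, against 0.587% of all genes). The median of these was 0.12, and 18 of the 19 (94.7%) were above 0, against 60.7% of all genes. Granulocytes use the oxidase of Cybb, and the median of the granulocyte marker list, described further on, was 0.45; its part in these values was not tested.

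Roles were given to 105 called genes after their values were seen, and of 16 kinases, phosphatases and signalling adaptors among them 10 were lower and 6 higher. Of all 117 called genes 43 were lower and 74 higher. Igf1r, the receptor of insulin-like growth factor, measured 11.85, 11.92 and 11.85 against 11.16, 11.17 and 11.10 (difference -0.73, SE 0.05, adjusted p = 0.000342). The arrays within each group were close and the groups were apart, and the FGFR1OP-RET mean was 11.71. Rasa2, a RAS GTPase-activating protein, fell by 0.57 on the log2 scale, the WNT receptor gene Ryk by 0.59 and the receptor phosphatase gene Ptprs by 0.63. The adaptor gene Lat2 fell by 0.55, the focal adhesion kinase relative Ptk2b by 0.44, the JNK scaffold gene Mapk8ip2 by 0.48, Plekhg5 by 0.44 and the ABL-binding adaptor gene Sh3bp2 by 0.31. Those that rose included the adaptor gene Gab3 (0.62), the lipid kinase gene Pik3c2g (0.59), Gadd45b (0.59) and the receptor kinase gene Mst1r (0.34).

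Of 35 ERK feedback and target genes 2 (5.71%, against 0.587% of all genes) fell, Hbegf and the transcription factor gene Etv5 (-0.55), and none rose. The list median was 0.00, and with the block 5 fell. Of 36 ABL partner and substrate genes Abl1 was the 1 called, and the median was -0.07. None of 27 PI3K, AKT and mTOR genes was called (median -0.09), and none of 25 genes of RET ligands, coreceptors and adaptors (median 0.03).

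Of 39 listed transcription factors of myeloid and lymphoid cells 1 was called, Runx1, and their median was 0.04. Over all called genes, 9 were given a role in transcription after their values were seen, 4 higher and 5 lower. Gata1, the factor of erythroid, megakaryocytic, eosinophil and mast cells, rose by 0.75, its erythroid partner Klf1 by 0.47, and Runx1, a factor of blood stem cells, by 0.78. The Hedgehog factor Gli2 rose by 0.38. Etv5, Foxs1 (-0.53), Tsc22d1 (-0.52), Arnt2 (-0.48) and Zfp975 (-0.35) fell. Gata1 and Klf1 were the 2 called of 13 erythroid genes (15.4%, against 0.587% of all genes). The median of that list was 0.13, and Klf1 was not called after centring (adjusted p = 0.0834, limma). Tfr2, a transferrin receptor, rose by 0.48. Itgb3, the beta3 integrin of platelets, rose by 0.82, while its partner chain Itgav fell by 0.37 on the log2 scale.

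The lowest values belonged to genes of varied function. Tmem119, a membrane protein known as a microglial marker, measured 11.97, 11.92 and 11.78 against 10.46, 10.52 and 10.30 (difference -1.46, SE 0.08, adjusted p = 8.54e-05). The groups were far apart, and the FGFR1OP-RET mean, 11.02, lay between. Cfp, the complement protein properdin, measured 11.16, 11.61 and 11.45 against 10.31, 10.46 and 10.66 (difference -0.93, SE 0.14, adjusted p = 0.0204; 0.115 without BCR-ABL replicate 2). Its FGFR1OP-RET mean of 11.42 was close to the BCR-ABL mean of 11.41. Gzmc, a granzyme, measured 12.79, 12.95 and 12.91 against 11.87, 12.05 and 12.17 (difference -0.86, SE 0.08, adjusted p = 0.00217), and was the 1 called of 20 cytotoxic granule genes.

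Ermp1, a peptidase of the endoplasmic reticulum, measured 13.29, 13.41 and 13.34 against 12.53, 12.65 and 12.46 (difference -0.80, SE 0.06, adjusted p = 0.000611). Slc39a14, a zinc and iron importer, measured 10.97, 11.12 and 10.95 against 10.46, 10.28 and 10.20 (difference -0.70, SE 0.07, adjusted p = 0.00359). In both the groups were apart. Hip1, a clathrin adaptor, measured 11.24, 11.18 and 11.06 against 10.65, 10.34 and 10.25 (difference -0.74, SE 0.10, adjusted p = 0.0109; 0.0764 without BCR-ABL replicate 2). Mamdc2, a proteoglycan, measured 9.13, 9.65 and 9.67 against 8.39, 8.51 and 8.45 (difference -1.04, SE 0.15, adjusted p = 0.0154; 0.103 without BCR-ABL replicate 2). Nxpe5 measured 8.91, 9.15 and 8.97 against 8.20, 8.34 and 8.15 (difference -0.78, SE 0.11, adjusted p = 0.0131; 0.0833 without BCR-ABL replicate 2). Replicate 1 was the lowest BCR-ABL array for Mamdc2 and Nxpe5.

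Of 6 called genes given a role in glycan synthesis or breakdown 3 fell and 3 rose. The sialyltransferase gene St3gal2 (-0.62), the galactosyltransferase gene B4galt5 (-0.40) and the chondroitin synthase gene Chsy1 (-0.35) fell, and the polysialyltransferase gene St8sia4 (0.48), Csgalnact1 (0.48) and the hyaluronidase gene Hyal3 (0.37) rose. Among metabolic genes the phosphatase gene Pdp1 (-0.99), the acyl-CoA synthetase gene Acsbg1 (-0.44), the phospholipase gene Pla2g4a (-0.36) and the hexokinase gene Hk3 (-0.28) fell, and the fatty acyl-CoA reductase gene Far2 (0.74), the cytochrome oxidase subunit gene Cox6a2 (0.64) and the carboxylesterase gene Ces2g (0.53) rose. The similar genes Selenbp1 (0.73) and Selenbp2 (0.63) rose together with the selenoprotein gene Selenom (0.41), and none of the 3 was called after centring. Nor were the higher genes Far2, Cox6a2, Ces2g, St8sia4, Csgalnact1 and Hyal3.

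Further higher genes were Muc13, a transmembrane mucin, at 11.05, 10.99 and 11.26 against 12.10, 12.35 and 12.22 (difference 1.12, SE 0.09, adjusted p = 0.000644). Sprn, a relative of the prion protein, measured 7.64, 7.53 and 7.32 against 8.82, 8.47 and 8.29 (difference 1.03, SE 0.13, adjusted p = 0.00877; 0.0566 without BCR-ABL replicate 2). The groups were apart in both genes. The transglutaminase gene Tgm2 rose by 0.92, the coagulation factor gene F10 by 0.76, Asb11 by 0.75, Fam178b by 0.72 and the membrane-binding protein gene Cpne5 by 0.67. The other probe set of Fam178b, which was dimmer, differed by 0.32. With all probe sets fitted, its adjusted p was 0.193 and that of the probe set used 0.0022 (limma).

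The remaining higher genes differed by 0.27 to 0.87. They were Bpifc (0.87), the small GTPase gene Rab38 (0.67), the cartilage matrix gene Matn1 (0.57), Tmem51 (0.52), the vesicular monoamine transporter gene Slc18a2 (0.51), Rangrf (0.38), Mtres1 (0.35), Nudt7 (0.34), Plvap (0.34), Rgcc (0.33), the adenylate kinase gene Ak1 (0.32), Eps8 (0.31), the amino acid transporter gene Slc6a19 (0.30), Rbp3 (0.29), Mpst (0.29) and the potassium channel subunit gene Kcnab3 (0.27), with 2 uncharacterised genes. The remaining lower genes were Igsf5 (-0.59), the endolysosomal channel gene Tpcn2 (-0.52), the organic anion transporter gene Slco4a1 (-0.52), the kinesin gene Kif13a (-0.46), the ubiquitin ligase genes Pja1 (-0.46) and Trim8 (-0.43), and Tango6 (-0.41).

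Cdh17, Pdp1 and Gem are neighbours in the RefSeq gene order, in the order Gem, Cdh17, Pdp1. This was noticed after the values were seen. Cdh17, a cadherin of the intestine, measured 8.57, 9.17 and 9.04 against 7.77, 7.87 and 7.84 (difference -1.10, SE 0.14, adjusted p = 0.0101; 0.058 without BCR-RET replicate 3). Pdp1, which activates pyruvate dehydrogenase, measured 11.95, 12.07 and 12.17 against 10.99, 11.12 and 11.13 (difference -0.99, SE 0.10, adjusted p = 0.00278). Gem, a small GTPase that inhibits calcium channels, measured 12.64, 12.38 and 12.17 against 11.51, 10.88 and 10.62. Its groups were apart and its difference was -1.40 (SE 0.26), but it passed with the block (adjusted p = 8.19e-05) and not without it (adjusted p = 0.0551).

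The mean of the 3 differences, -1.16, was the lowest of 19875 windows of 3 neighbouring genes. On the side of Pdp1, Tmem67 differed by -0.29 (adjusted p = 0.428, and 0.0402 with the block) and Rbm12b2 by -0.40 (adjusted p = 0.182). On the side of Gem, Rad54b and Virma differed by -0.10 and -0.09 (adjusted p = 0.759 and 0.686). FGFR1OP-RET means of Gem, Cdh17 and Pdp1, at 11.85, 8.62 and 11.47, lay between those of the other groups. The window with the highest mean, 0.82, held Pdcd1, Fam174a and St8sia4, of which Fam174a differed by -0.09.

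**Figure D3:**
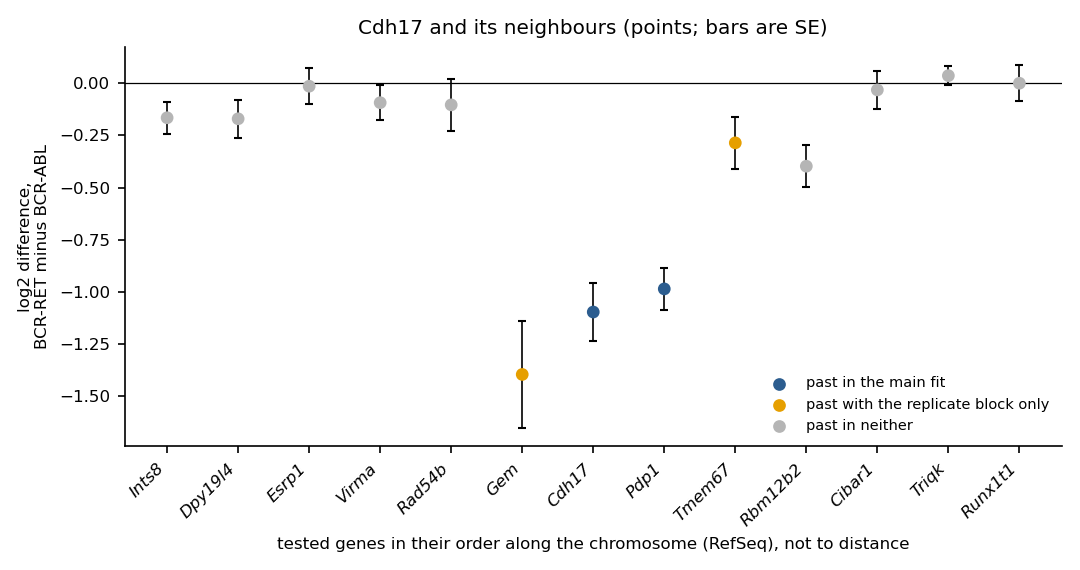
Log2 differences (points) with SE (bars) of Cdh17 and the 6 tested genes on each side, in gene order and not to distance. Gem, Cdh17 and Pdp1 lie between -0.99 and -1.40 and the 5 genes before Gem between -0.17 and -0.01.

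Granulocyte markers were the list with the highest median among those with no call. The median of 21 genes was 0.45, 17 (81.0%) were above 0 against 60.7% of all genes, none was called, and with the block 6 were called, all higher. On the 6 arrays alone 1 was called higher and 1 lower, and with the block on those arrays 9 higher and 1 lower. Over all genes these 2 settings called 56 and 377 genes. The list's mean log2 values were 8.93, 9.03 and 9.15 on the BCR-ABL arrays and 9.34, 9.30 and 9.59 on the BCR-RET arrays, so the groups were apart. On the FGFR1OP-RET arrays they were 9.47, 9.82 and 9.67. Ltf, encoding lactoferrin, and Lcn2, encoding lipocalin 2, both of neutrophil granules, differed by 0.92 and 0.87 (adjusted p = 0.182 and 0.14, and 0.0734 and 0.0272 with the block). On the 6 arrays alone their adjusted p values were 0.0259 and 0.0574 (limma). The matrix protease gene Mmp9, of the same list, differed the other way, by -0.59. Its adjusted p was 0.261, with the block 0.0975 and on the 6 arrays alone 0.0491 (limma). Bulk values cannot tell more cells of a type from more RNA per cell, and whether such cells contribute to other differences was not tested. Of 36 monocyte and macrophage genes, which the series title bears on, Cybb rose and the matrix gene Emilin2 fell by 0.43, and the median was 0.08. These 2 were 5.56% of the list, against 0.587% of all genes called. Lyz2, lysozyme, differed by 0.94 and was called in neither fit (adjusted p = 0.297, and 0.14 with the block).

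With the block 245 further genes were called, 163 higher and 82 lower. Among characterised genes the highest were Prg2, the major basic protein of eosinophils (1.10; adjusted p = 4.31e-05 with the block and 0.0719 without), Nkg7, a cytotoxic granule protein (1.10), the NK receptor gene Klrb1f (1.05) and the carbonic anhydrase gene Car13 (0.99). The lowest of the characterised genes after Gem were the cytoskeletal adaptor gene Pstpip1 (-0.69), Cmah (-0.68) and Rgs1 (-0.58), a regulator of G protein signalling. The predicted gene Gm14636, which is not characterised, differed by -1.13. None of these passed without the block. Of the 19 genes that differed by at least 1, 13 were called, 5 passed with the block alone, and the small nucleolar RNA Snord118 (1.05) passed in neither.

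Several lists of basic cell processes held no call. None was called among 34 DNA replication genes (median -0.04), 27 mitosis genes (-0.05), 30 MYC and ribosome biogenesis genes (-0.06), 28 proteasome genes (0.13) and 27 respiratory chain genes (0.11). Of the 68 lists 30 held a called member, and 70 of the 117 called genes were in no list.

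**Figure D4:**
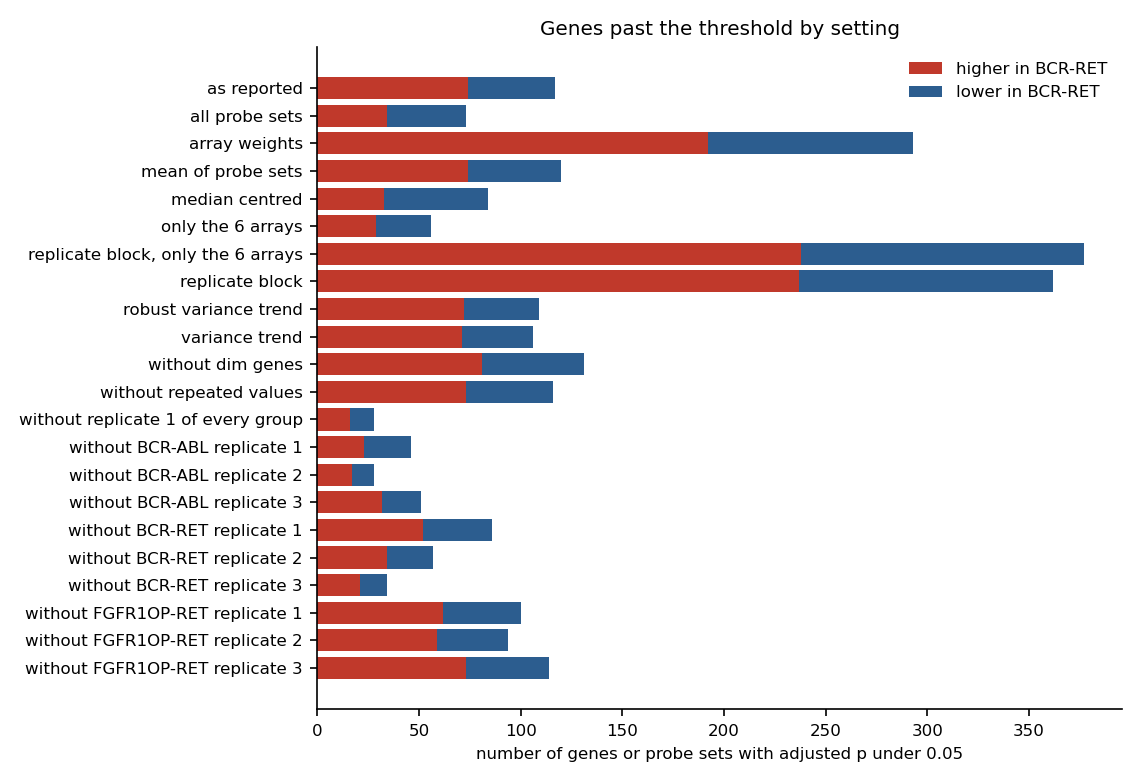
Numbers of genes (probe sets in the setting of all probe sets) with adjusted p under 0.05, higher (red) and lower (blue) in BCR-RET, for the analysis reported and each alternative. Counts run from 28 without BCR-ABL replicate 2, or without replicate 1 of every group, to 377 with the block on 6 arrays.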

How the data were processed

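RNA was measured on MouseGene 1.0 ST arrays. The deposited values are log2 and come from RMA; the submitters' processing notes name Affymetrix Expression Console as the software. Neither its version nor an annotation or build is stated there. Array medians lay between 8.01 and 8.04, and RMA makes distributions alike, so a shift of most transcripts would not be seen. The number of arrays limits precision (median SE 0.07).

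Of 35557 probe sets, 21789 had 1 symbol, 1621 several and 12147 none in the platform annotation. Groups and replicate numbers came from the sample titles. BCR-RET minus BCR-ABL was fitted with limma 3.58.1 (lmFit, eBayes) in R 4.3.3 on all 9 arrays, with 1 mean per group and Benjamini-Hochberg adjustment over 19938 genes. The procedure was tested on simulated data with independent noise on each array. It called 75% of changes of 0.5 and 94% of changes of 1, and 5.06% of its calls were false. Deviations shared by same-numbered arrays were not simulated. SE is that of a log2 difference.

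Same-numbered arrays of the 2 fusions deviated together from their group means (r across genes 0.617, 0.155 and 0.367). Each value exceeded the limit for pairs, so the numbers were treated as pairs in the alternative fit with the block. Calls and adjusted p values not marked as with the block came from fits without pairs. Numbers 2 and 3 also correlated across the fusions (0.222 both ways), above the 0.155 of the number 2 pair, and number 1 correlated negatively with both. The genes, the 68 lists and the rules were chosen with earlier results of these data known. Any called gene with a characterised symbol could be named. Values by array were given for the 12 highest and 12 lowest with groups apart, and the fusion partners, members of each list and genes called with the block alone or in neither fit were named by size. Gene order and promoters came from RefSeq.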

Additional observations from a re-analysis of the deposited data

Results flagged for a closer look

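Probe sets with several symbols or none lay outside the comparison of genes. When all 35557 probe sets were fitted together with limma, 23 of them passed at an adjusted p under 0.05, 19 without a symbol (2 higher and 17 lower in BCR-RET) and 4 with several (4 higher). Differences ran from -1.83 (adjusted p = 0.0295) to 3.11 (adjusted p = 0.000912), beyond the lowest and highest of the genes, and these 2 probe sets had no symbol. The highest measured 7.29, 7.08 and 7.12 on the BCR-ABL arrays and 10.18, 10.66 and 9.99 on the BCR-RET arrays. They were not named as genes.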

How the results depend on the processing

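Against 117 genes in the analysis reported, the count was 56 with only the 6 arrays and 362 with the replicate block. It was 377 with the replicate block on the 6 arrays and 293 with array weights. Without replicate 1 of every group, an alternative chosen after seeing the data, it was 28. When all probe sets were tested, 73 probe sets were called. Of the 117 genes, 49 were still called with only the 6 arrays, and the probe sets of 50 when all were tested. In BCR-ABL and in BCR-RET the array numbered 1 deviated most from its group mean (SD over genes 0.0951 and 0.113), whereas in FGFR1OP-RET it was number 3 (0.116). Leaving out single arrays gave 28 to 114 genes: for BCR-ABL it was 46 (replicate 1 out), 28 (replicate 2) and 51 (replicate 3), and for BCR-RET 57 (replicate 2) and 34 (replicate 3). The causes were not tested. Median centring gave 84 genes (33 higher, 51 lower) and moved the medians of 72 of 88 lists and families. The replicate block ended no call among the 117 genes. No called gene changed its direction under any of these settings.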
